A study of Mus musculus with 4 samples.

Results

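The genes described here are members of the SLC26 and SLC4 families of anion transporters, together with the chloride and bicarbonate channel gene Cftr, in testis RNA of mice mutant for Lrrc8a. The 10 genes were taken by symbol from a table of 24420 gene symbols, as transporters of chloride, sulfate and bicarbonate. No measured value entered that rule, although it was drawn up with earlier results of these data known. They are Slc26a1, Slc26a2, Slc26a6, Slc26a8, Slc26a11, Slc4a2, Slc4a3, Slc4a4, Slc4a7 and Cftr. Testis of the FVB strain was sequenced from freshly isolated tissue, 2 libraries labelled lrrc8a MUT and 2 labelled WT. The labels give no age, no kind of allele and no number of animals behind a library, so each p-value reflects only how far these libraries spread, and that spread may be technical. They name germ cells as the cell type and testis as the source. Markers of somatic testis cells were present (summed Sertoli markers at 869.2 and 900.8 CPM in MUT and 842.9 and 797.7 CPM in WT), as were those of germ cells (summed elongating spermatid markers at 14011 and 13277 CPM in MUT and 15003 and 13678 CPM in WT), so the libraries were treated as whole testis. In whole tissue, fewer cells of a type and less RNA per cell cannot be told apart.

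LRRC8A is the obligatory subunit of the volume-regulated anion channel, through which swollen cells lose chloride and organic osmolytes. The transporters described here move chloride and other anions by other routes. SLC26 proteins exchange or conduct chloride, bicarbonate, sulfate and oxalate. SLC4 proteins exchange chloride for bicarbonate or carry bicarbonate together with sodium. CFTR is an anion channel opened by cAMP-dependent phosphorylation. Bicarbonate matters to male germ cells because it raises the pH of sperm and activates their soluble adenylyl cyclase during capacitation. In mice, loss of Slc26a8 causes male sterility with poorly motile sperm, and loss of Slc4a2 stops spermatid development.

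The libraries held 40426400 to 68192776 reads assigned to genes. Values are CPM, read counts scaled to a common library size. Of the 10 genes, 9 had 1 CPM or more in 2 or more libraries and were tested, and 0 were called (limma adjusted p from 0.129 to 0.979). Over all 15364 tested genes 115 were called (0.749%), 74 higher and 41 lower in MUT. Scaling to plain library totals gave 122 and 34 (78.2% higher, against 64.3%), and leaving the 100 most abundant genes out of the totals gave 113 and 37 (75.3%). Without WT 1 the counts were 133 and 177, and without MUT 2 they were 101 and 86. An unadjusted p under 0.05 was reached by 1 of the 9 genes, Slc4a3, and by 14.7% of all tested genes. The count tests edgeR and DESeq2 also called 0 of the 9, with 1 at an unadjusted p under 0.05. DESeq2 gave no adjusted p for Slc26a6, Slc26a11 and Slc4a4, so it could not call them. The libraries of the genotypes did not overlap for 3 of the 9, and for 45.6% of all tested genes. The median log2 fold change, MUT minus WT on log2(CPM + 0.5), was 0.05 for the 9 genes and -0.0016 for all tested genes. Lrrc8a itself was at 13.49 and 15.86 CPM in MUT and 18.21 and 17.15 CPM in WT, with a log2 fold change of -0.26 (SE 0.0998, limma adjusted p = 0.218) that was -0.15 without MUT 1 and -0.38 without MUT 2. In GENCODE vM21, 66.2% of its exon bases are shared on the same strand with the protein-coding gene Gm28035. Gm28035 is not among the 24420 symbols with values, which include 3133 at 0 in all libraries. Whether the annotation used for counting held that gene all the same is not stated. If it did, the value may not count all reads of Lrrc8a. Which part of Lrrc8a is altered is not stated.

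**Figure D1:**
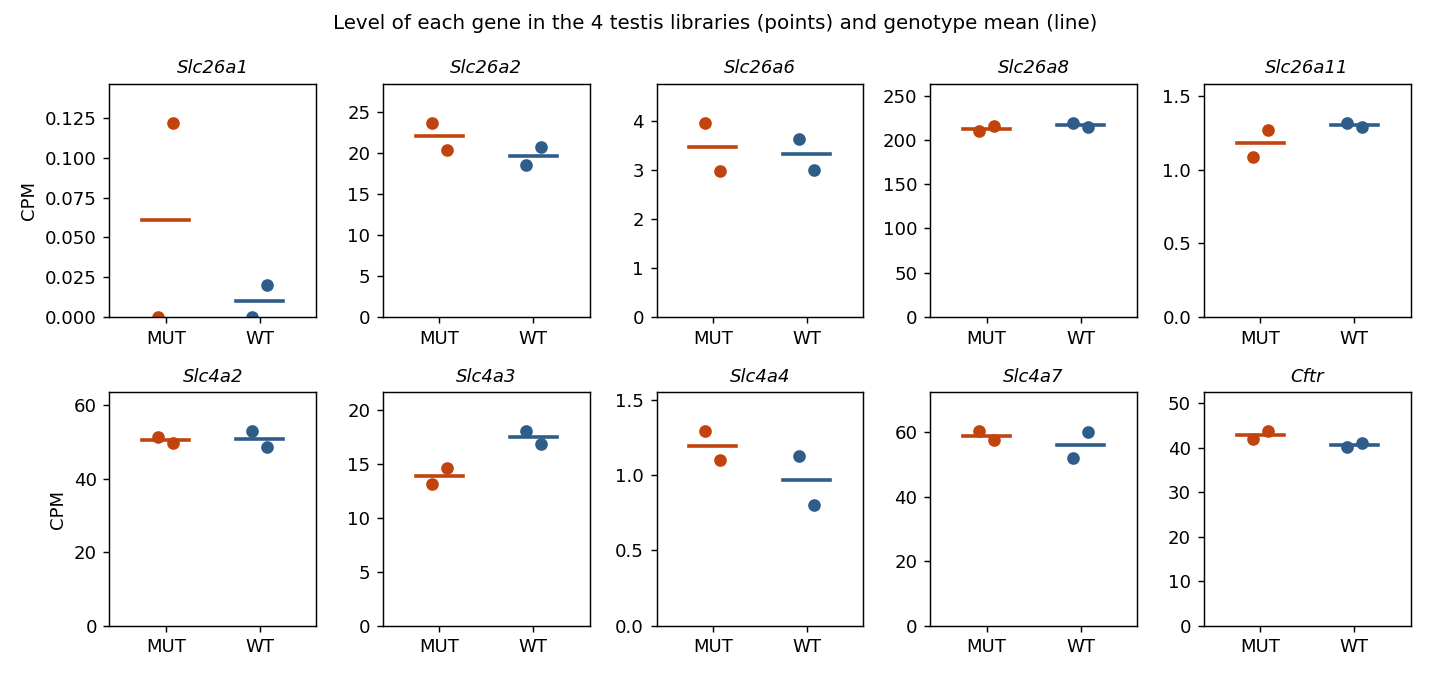
CPM of each of the 10 genes in each library (points) and the mean of each genotype (lines), with axes that start at 0 and differ between panels. The MUT and WT libraries of Slc4a3 are apart, at 13.16 and 14.64 CPM in MUT and 18.02 and 16.87 CPM in WT, while those of Slc26a8 lie within 209.8 to 219.5 CPM.

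Slc26a8, the testis anion transporter of male germ cells, lay on chromosome 17 from 28637783 to 28690233 on the minus strand (GENCODE vM21 on GRCm38, called mm10, ENSMUSG00000036196). It was at 209.8 and 215.0 CPM in MUT libraries and at 219.5 and 214.2 CPM in WT libraries. The genotypes overlapped, with MUT 2 above WT 2. The means were 212.4 ± 3.7 CPM in MUT and 216.8 ± 3.76 CPM in WT (SD, n = 2). Each library held between 8800 and 14799 reads of the gene, and its standard error of 0.062 was the smallest of the 9. The log2 fold change was -0.03 (limma adjusted p = 0.875), and the 95% confidence interval ran from -10.5% to 7.18%. Such percent intervals are differences of CPM + 0.5 relative to WT. This is close to a difference in CPM for abundant genes. It is smaller for genes of a few CPM or less, such as Slc26a6, Slc26a11 and Slc4a4. At this error an estimated change had to reach about 1.205-fold to be called.

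Levels of different genes were compared per length, as CPM per kb of the longest annotated transcript, which need not be the transcript used in testis. On this scale Slc26a8 was at 57.2 and 58.6 in MUT and 59.8 and 58.4 in WT, above 92.6% of all detected symbols with a known length. Slc26a8 made up 89.1% of the summed per-length level of the 11 SLC26 genes in MUT and 90.6% in WT (means of 2 libraries). In the order of levels among the 10 genes Slc4a2 came next, at 11.9 CPM per kb over all libraries, 4.92 times lower. Slc4a7 (7.07) and Cftr (6.51) followed and overlapped in their ranges over the 4 libraries. Slc26a2 (2.67) and Slc4a3 (2.18) also overlapped. Below them came Slc26a6 (0.78), Slc26a11 (0.451), Slc4a4 (0.136) and Slc26a1 (0.0093), with no overlap between these neighbours or with Slc4a3.

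**Figure D2:**
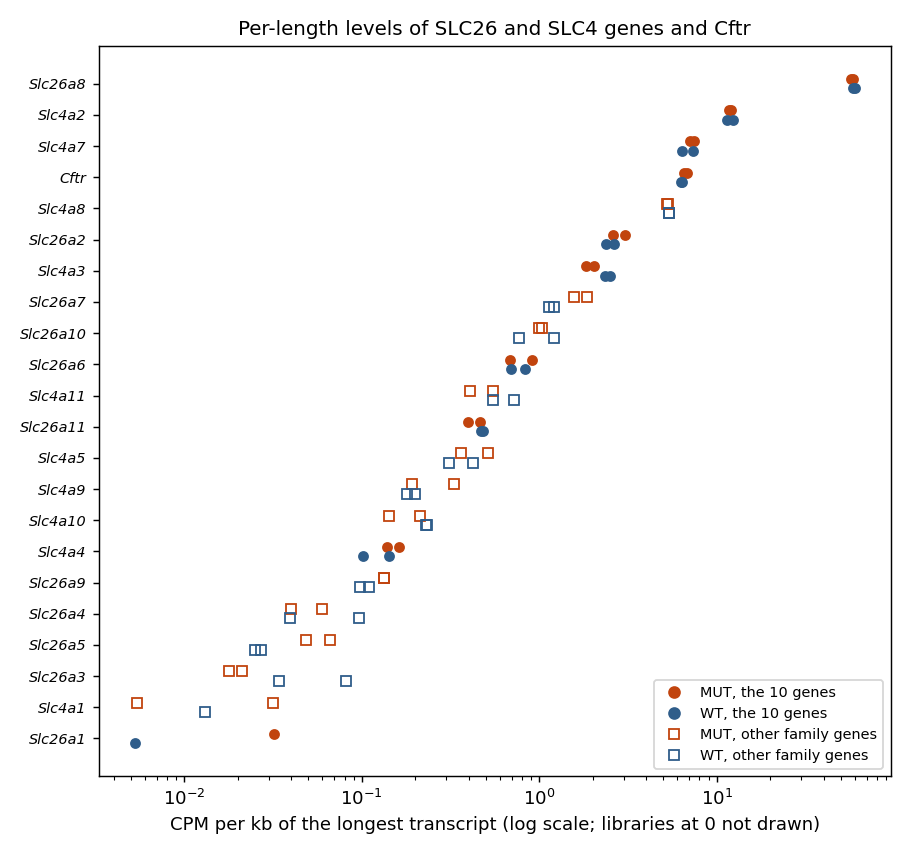
CPM per kb of the longest transcript (log axis) in each MUT and WT library for the 10 genes (filled circles) and for the other 12 SLC26 and SLC4 genes of the table (open squares), ordered by mean. Slc26a8 stands above all others, near 58.5 CPM per kb, and Slc26a1 is at the bottom.

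The promoter windows of the members at the top and bottom of this order, and of Cftr, are shown as those of the most and least abundant transcript and of the channel gene. They run from 250 bases before to 50 bases after a RefSeq start, on the strand of the gene (RefSeq, GRCm38.p6). The RefSeq start is the start of the GENCODE gene for Cftr but lies 246 bases downstream of it for Slc26a8 and 204 bases downstream for Slc26a1, so most of the Slc26a8 and Slc26a1 windows lies inside the gene spans given here. A GENCODE transcript begins at the RefSeq start of Slc26a8 (0 bases apart), and the nearest to that of Slc26a1 begins 204 bases away. Such windows were at hand for 8 of the 10 genes, and of the 2 windows of Slc26a1 the upstream one is shown. The RefSeq start of the window not shown is nearer to a GENCODE transcript start, at 11 bases. Capitals mark matches on either strand to the CCAAT box, the GC box of letters GGGCGG, the TATA box of letters TATAAA, the core of the cAMP response element with letters TGACG, the element's variant TGACATCA, and the RFX site of letters GTTGCC. The variant was added to the search after the sequences were seen.
Slc26a8, chr17:28689938-28690237, minus strand: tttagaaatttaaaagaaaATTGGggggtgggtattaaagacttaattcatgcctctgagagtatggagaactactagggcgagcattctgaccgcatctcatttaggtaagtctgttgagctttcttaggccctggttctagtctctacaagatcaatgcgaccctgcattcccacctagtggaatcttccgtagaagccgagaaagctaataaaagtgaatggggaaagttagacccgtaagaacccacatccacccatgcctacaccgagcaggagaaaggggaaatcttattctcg
Cftr, chr6:18170437-18170736, plus strand: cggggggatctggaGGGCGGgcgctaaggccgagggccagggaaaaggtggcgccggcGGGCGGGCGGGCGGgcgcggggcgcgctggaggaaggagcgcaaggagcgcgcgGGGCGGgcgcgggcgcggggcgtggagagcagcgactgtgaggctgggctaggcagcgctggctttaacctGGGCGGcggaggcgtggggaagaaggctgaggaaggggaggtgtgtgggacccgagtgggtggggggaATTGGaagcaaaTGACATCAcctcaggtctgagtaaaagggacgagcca
Slc26a1, chr5:108675316-108675615, minus strand: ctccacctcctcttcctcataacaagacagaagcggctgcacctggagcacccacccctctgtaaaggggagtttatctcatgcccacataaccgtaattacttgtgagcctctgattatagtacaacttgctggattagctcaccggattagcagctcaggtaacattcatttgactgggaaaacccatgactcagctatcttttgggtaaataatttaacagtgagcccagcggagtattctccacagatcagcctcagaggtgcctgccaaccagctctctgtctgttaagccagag
The Slc26a8 window had a GC content of 44.7%, against 71.3% for Cftr, 48.3% for Slc26a1 and a median of 52.7% over 32851 windows. It held 1 match, a CCAAT box on the opposite strand at bases 20 to 24 of the window. The Cftr window held 6 GC boxes, a CCAAT box on the opposite strand at bases 252 to 256 and the variant TGACATCA at bases 264 to 271. Of all windows, 37.4% held a CCAAT box, 35.7% a GC box, 13.6% a TATA box, 20.8% TGACG, 12.5% the RFX site and 3.6% TGACATCA. The Slc26a1 window shown held none of these motifs, and its other window held a CCAAT and a TATA box, both on the opposite strand. A GC box can overlap the next, as it does at bases 59 to 72 of the Cftr window. These matches describe letters and not binding, which was not measured.

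Cftr, on chromosome 6 from 18170687 to 18322768 (plus strand, ENSMUSG00000041301), was at 42.1 and 43.7 CPM in MUT and 40.2 and 41.0 CPM in WT. Both MUT libraries were above both WT libraries. The means were 42.9 ± 1.16 CPM in MUT and 40.6 ± 0.586 CPM in WT (SD, n = 2). A log2 fold change of 0.08 (SE 0.0763) was not called (limma adjusted p = 0.672), with an interval from -5.43% to 18.1%. CFTR is best known from epithelia and from Sertoli cells. Which testis cells the Cftr RNA came from was not tested. Epididymal markers were low: 7 of 8 were below the filter, among them the lipocalin genes Lcn5 and Lcn8 (named after their values were seen, as is Rnase10), and the list summed to 5.64 and 6.28 CPM in MUT and 4.98 and 4.36 CPM in WT, most of it from Rnase10. Of the exon bases of Cftr, 1.66% are shared with the antisense gene Gm15592. The kit keeps the strand, but whether the reads were counted by strand is not stated.

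The sulfate and oxalate transporters of the SLC26 family were at lower levels. Slc26a2, which brings sulfate into cells and is mutated in human chondrodysplasias, was at 23.7 and 20.4 CPM in MUT and 18.5 and 20.7 CPM in WT. The genotypes overlapped, since MUT 2 was below WT 2. Its log2 fold change of 0.16 (SE 0.097) was not called (limma adjusted p = 0.45), and the interval reached 29.1% above WT. It was 0.06 without MUT 1 and 0.27 without MUT 2, so its size rests on single libraries. Slc26a2 lies on chromosome 18 from 61192919 to 61211612.

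Slc26a6, a chloride, oxalate and bicarbonate exchanger of epithelia, was at 3.98 and 2.98 CPM in MUT and 3.63 and 3.02 CPM in WT. In each genotype replicate 1 was the higher library, and the groups overlapped. Its log2 fold change was 0.05 (SE 0.152), with an interval from -17% to 29.2%, and its sign depended on the libraries kept, from -0.13 without MUT 1 to 0.23 without MUT 2. Slc26a11, a sulfate transporter, was at 1.09 and 1.27 CPM in MUT and 1.32 and 1.29 CPM in WT, with no overlap. These values rest on 52 to 89 reads per library, and the log2 fold change of -0.11 (SE 0.174) was not called (limma adjusted p = 0.833). It ranged from -0.03 without MUT 1 to -0.18 without MUT 2. At this error only an estimated rise of about 1.95-fold or fall of about 2.29-fold in CPM would have been called.

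Slc26a1, a sulfate and oxalate exchanger known from liver and kidney, was at or near the limit of detection. It had 0 and 0.122 CPM in MUT and 0 and 0.0201 CPM in WT, which is 0 and 5 reads in MUT and 0 and 1 reads in WT. Only MUT 2 exceeded a floor of 3 reads (0.0733 CPM in that library), so the gene was not tested and no fold is given. The floor covers counting error only. Slc26a1 lies on the minus strand of chromosome 5 from 108669878 to 108675569, inside Idua on the plus strand. Their exons share 3.48% of the exon bases of Slc26a1, and Idua was detected at 2.67 and 2.69 CPM in MUT and 2.58 and 1.81 CPM in WT.

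**Figure D3:**
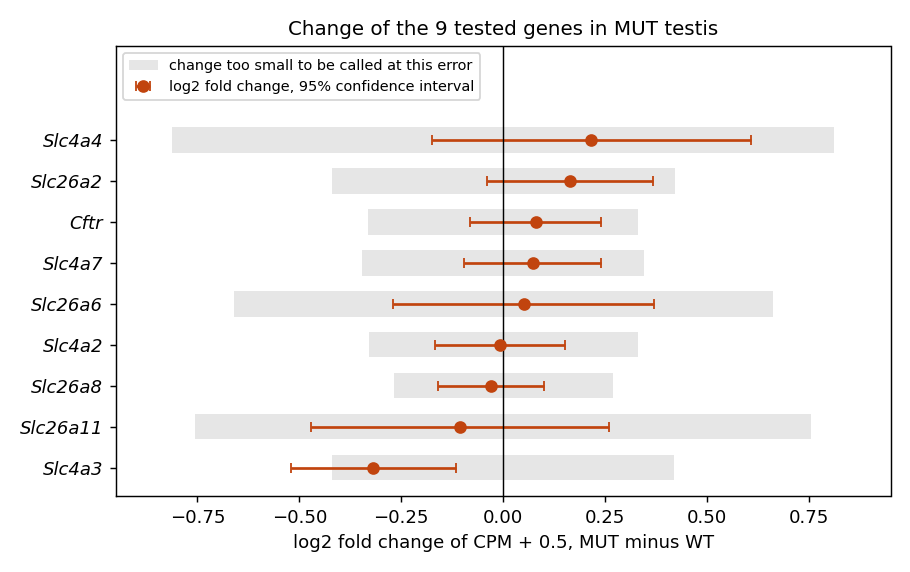
Log2 fold change of CPM + 0.5, MUT minus WT, with its 95% confidence interval for the 9 tested genes, over a grey bar that spans the changes too small to be called at the error of that gene. Every point lies inside its grey bar, and the interval leaves 0 only for Slc4a3 (-0.52 to -0.12).

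Slc4a3 and Slc4a2 are the chloride-bicarbonate exchangers of the SLC4 family among the 10 genes. Slc4a3, an exchanger known from heart and brain, was at 13.2 and 14.6 CPM in MUT and 18.02 and 16.87 CPM in WT. Both MUT libraries were below both WT libraries, and the means were 13.9 ± 1.04 CPM in MUT and 17.4 ± 0.815 CPM in WT (SD, n = 2). The log2 fold change was -0.32 (SE 0.0967), an interval from -30.3% to -7.73%, with an unadjusted p of 0.00388 that ranked 459 among all tested genes. It was not called (limma adjusted p = 0.129). The adjusted p was 0.117 with edgeR and 0.195 with DESeq2. With all 4 libraries kept, it ranged from 0.0793 to 0.3 over the alternatives. The value of 0.0793 came from a crossed pairing (MUT 1 with WT 2, MUT 2 with WT 1) chosen after the data were seen. Slc4a3 was called in 0 of 18 alternatives. Its log2 fold change was negative in each of them, from -0.39 without MUT 2 to -0.24 without MUT 1. Peritubular myoid markers, from the smooth-muscle-like cells around the tubules, had lower summed levels in MUT as well. All 5 had a log2 fold change below 0 and 0 were called, none was at 0 in any library, and they summed to 94.98 and 104.3 CPM in MUT and 117.3 and 110.2 CPM in WT. Endothelial markers also summed lower in both MUT libraries (42.83 and 43.34 CPM in MUT, 44.88 and 44.96 CPM in WT). Of these 5 markers, however, 3 had a log2 fold change above 0. Of the elongating spermatid markers 5 of 6 were below 0, and of the spermatocyte and round spermatid markers 4 of 6 each. The sums of these germ cell lists overlapped. Sums of the Leydig, Sertoli, macrophage and epididymal lists were higher in both MUT libraries. Of their markers, 5 of 6 for Leydig cells, 6 of 8 for Sertoli cells and 3 of 5 for macrophages were above 0. Only 1 of 8 epididymal genes was tested. The part of myoid or other cells in the values of Slc4a3 was not tested.

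Slc4a2, the anion exchanger AE2, was at 51.3 and 49.7 CPM in MUT and 53.0 and 48.7 CPM in WT. The MUT libraries lay between the WT libraries. The log2 fold change was -0.01 (SE 0.0761, limma adjusted p = 0.979), with an interval from -10.9% to 11.1%. Its sign turned with the scaling, to 0.02 with plain library totals. The 3′ part of Slc4a2 overlaps Fastk on the opposite strand, which takes in 13.7% of its exon bases, so some reads could be shared if the counting ignored strand. Fastk was at 117.3 and 125.7 CPM in MUT and 124.7 and 121.7 CPM in WT. Slc4a2 lies on chromosome 5 from 24423837 to 24440950 and Slc4a3 on chromosome 1 from 75546266 to 75562172.

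Both sodium-bicarbonate cotransporters among the 10 genes were detected. Slc4a7, the electroneutral cotransporter NBCn1, was at 60.3 and 57.5 CPM in MUT and 52.1 and 60.0 CPM in WT. The groups overlapped because WT 2 lay between the MUT libraries. Its log2 fold change of 0.07 (SE 0.0798) was not called (limma adjusted p = 0.72), with an interval from -6.37% to 18.1%. Without WT 1 it was -0.03 and without WT 2 it was 0.17. Slc4a4, the electrogenic cotransporter NBCe1 known from kidney and pancreas, was at 1.29 and 1.1 CPM in MUT and 1.13 and 0.804 CPM in WT. The groups overlapped, and the values rest on 40 to 76 reads per library. Its log2 fold change of 0.22 (SE 0.187) had the widest interval of the 9, from -0.18 to 0.61 on log2(CPM + 0.5) (limma adjusted p = 0.631). The ratio of the mean CPM was 1.24, and the log2 fold change was 0.29 with 0.1 and 0.16 with 1 in place of 0.5 added to the CPM. It ranged from 0.06 without WT 2 to 0.38 without WT 1. Slc4a7 lies on chromosome 14 from 14702279 to 14799940 and Slc4a4 on chromosome 5 from 88886818 to 89239653.

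The other 12 genes of both families were read beside these. Of them 6 were tested and 0 called, with a median log2 fold change of 0.02. Slc26a7, a chloride and bicarbonate transporter known from kidney, stomach and thyroid, came nearest to a call. It was at 9.62 and 8.11 CPM in MUT and 5.87 and 6.27 CPM in WT, both MUT libraries above both WT libraries. The log2 fold change of 0.51 (SE 0.118) had a limma adjusted p of 0.0519. It was called in 5 of 18 alternatives, among them edgeR (adjusted p = 0.0477), plain library totals (0.0358) and the fit without MUT 2 (0.00707). It was not called by DESeq2 (0.0662) or without MUT 1 (0.306). Leydig cell markers also had higher summed levels in MUT, 1057 and 1096 CPM in MUT and 915.3 and 896.4 CPM in WT, with 5 of 6 log2 fold changes above 0, 1 called higher and no marker at 0 in any library. The called marker was Cyp17a1, of androgen synthesis, with a log2 fold change of 0.28 (limma adjusted p = 0.0361). The call of Cyp17a1 was lost with the replicate block (adjusted p = 0.0514) and without the filter (0.242), the variance trend (0.283), MUT 1 (0.0907), MUT 2 (0.162) or WT 2 (0.124). Leydig markers were not alone in this direction. Sums of the Sertoli, macrophage and epididymal lists were also higher in both MUT libraries. Of their markers, 6 of 8 for Sertoli cells and 3 of 5 for macrophages were above 0. Only 1 of 8 epididymal genes was tested. Sums of the peritubular myoid and endothelial lists were lower in both MUT libraries, although 3 of the 5 endothelial markers were above 0. The part of Leydig or other cells in the values of Slc26a7 was not tested. Slc4a8, a sodium-driven chloride-bicarbonate exchanger, was the most abundant of the other genes in CPM, at 62.1 and 62.7 CPM in MUT and 63.8 and 63.4 CPM in WT, with a log2 fold change of -0.03 (SE 0.0708). Slc4a11 was at 1.74 and 1.29 CPM in MUT and 1.77 and 2.29 CPM in WT (limma adjusted p = 0.4). No gene of either family was at 0 in all libraries, but Slc26a3, Slc26a4, Slc26a5 and Slc4a1 were below 0.3 CPM in each.

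Genes that make, sense or use bicarbonate were abundant in part. Adcy10, the soluble adenylyl cyclase that bicarbonate activates in sperm, was at 513.8 and 484.8 CPM in MUT and 485.4 and 518.8 CPM in WT, with overlapping groups (log2 fold change -0.01). In the list of sodium-proton exchangers and Adcy10, 10 of 13 were tested and 0 called, with a median of -0.04. Slc9a9, of endosomes, was at 2.15 and 2.13 CPM in MUT and 1.65 and 1.85 CPM in WT (limma adjusted p = 0.518).

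Carbonic anhydrases interconvert carbon dioxide and bicarbonate. Of 16, 8 were tested and 0 called, with 6 of 8 below 0 and a median of -0.17. An unadjusted p under 0.05 was reached by 3 of these 8, by 1 of the 6 other family genes, by 0 of 10 in the list with Adcy10, by 1 of 16 scaffolds and regulators and by 2 of 15 sulfate genes, beside the 14.7% of all tested genes. Car4, which is anchored to the membrane and found on sperm, was at 2.21 and 2.17 CPM in MUT and 3.19 and 3.5 CPM in WT. Both MUT libraries were below both WT libraries (log2 fold change -0.51, SE 0.144, limma adjusted p = 0.101). Car15 was at 6.03 and 6.4 CPM in MUT and 8.5 and 7.16 CPM in WT (limma adjusted p = 0.231). Car2, the abundant cytosolic enzyme, was at 134.1 and 146.0 CPM in MUT and 153.0 and 155.8 CPM in WT (limma adjusted p = 0.336).

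Among 16 scaffolds and regulators of CFTR and SLC26 proteins, all were tested and 0 called, with a median of 0.03. Slc9a3r1, the scaffold NHERF1 that binds the tail of CFTR, was at 40.2 and 41.0 CPM in MUT and 35.3 and 31.2 CPM in WT, with no overlap (log2 fold change 0.29, SE 0.0826, limma adjusted p = 0.109). It was called in 2 of 18 alternatives, without WT 1 (0.0327) and after removal of GC content and length (0.0404). Slc9a3r2, the related NHERF2, was at 2.87 and 4.15 CPM in MUT and 4.61 and 4.24 CPM in WT (limma adjusted p = 0.344). Stk39, the kinase SPAK that acts on chloride transporters, was at 398.4 and 401.0 CPM in MUT and 383.9 and 409.3 CPM in WT. Of the genes for sulfate use and transport, 15 of 16 were tested and 0 called, with a median of 0.01. Chst11, a chondroitin sulfotransferase, was at 2.32 and 2.37 CPM in MUT and 1.75 and 1.23 CPM in WT, a log2 fold change of 0.53 (SE 0.169, limma adjusted p = 0.15) that was 0.34 without WT 2 and 0.72 without WT 1. Ids, the lysosomal iduronate sulfatase, was at 5.9 and 6.6 CPM in MUT and 4.81 and 4.68 CPM in WT (limma adjusted p = 0.173). Tpst1, which sulfates tyrosines, was at 93.8 and 103.5 CPM in MUT and 98.5 and 97.4 CPM in WT. Slc13a1, a sodium-sulfate cotransporter of kidney, was at 0 in all libraries.

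**Figure D4:**
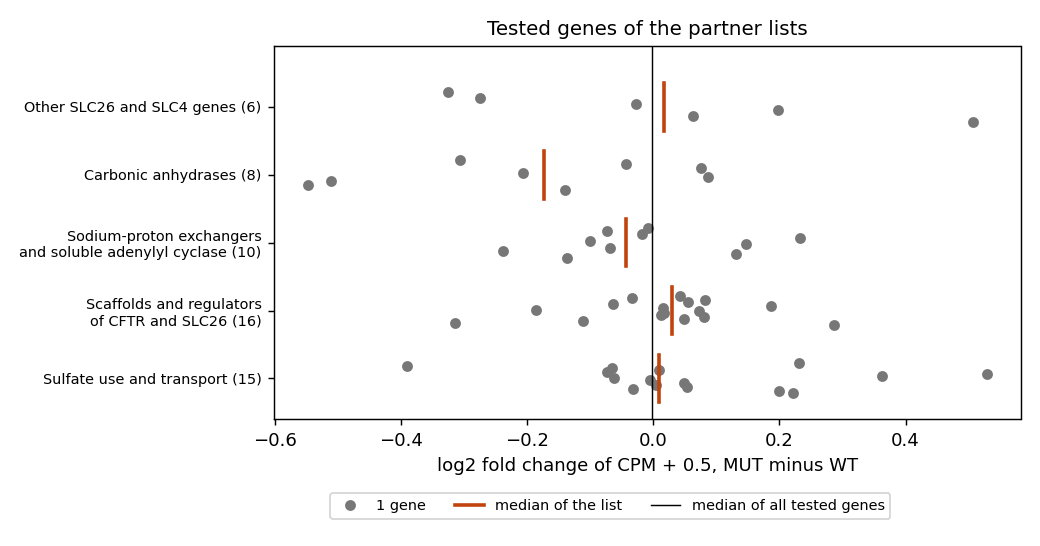
Log2 fold change of CPM + 0.5, MUT minus WT, of each tested gene (points) in the 5 lists of related genes, with the number tested in brackets, the median of each list (thick lines) and the median of all tested genes (thin line). The medians run from -0.17 for carbonic anhydrases to 0.03 for the scaffolds and regulators, and no point was called.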

How the data were processed

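The authors deposited CPM, read counts scaled to each library, for 4 libraries made with a stranded mRNA kit, per the labels. TopHat2 2.0.10, HTSeq 0.6.0, edgeR 3.8.6 and mm10 are named by the submitters' processing notes without roles. All values (100%) were whole multiples of the smallest value of their library within 0.001, which gave whole reads. TMM factors of these reads are already in the deposited CPM, so that alternative returned the same values and is not counted among the 18 others. CPM are shares of a library, so totals of RNA per testis are not measured.

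Symbols with at least 1 CPM in at least 2 libraries were tested on log2(CPM + 0.5) with limma 3.58.1 (mean-variance trend, R 4.3.3), two-sided, Benjamini-Hochberg adjusted over all tested genes, and called at an adjusted p under 0.05. An exact permutation test of 2 against 2 libraries cannot go below p = 0.333. edgeR 4.0.16 and DESeq2 1.42.0 were run on recovered reads as alternatives. The pipeline was tested on simulated reads. Lengths are of the longest GENCODE vM21 transcript. Named genes are the 10 genes, Lrrc8a, and of each list the 2 smallest p, the most abundant and any called gene. One gene that this rule names is not reported here. The 10 genes were chosen by function, but they and the lists were chosen with earlier results of these data known.

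Called genes of the marker lists were Kit of spermatogonia, Cyp17a1 of Leydig cells and Cd74 of macrophages. Kit had a log2 fold change of 0.46 and Cd74 one of -0.59 (limma adjusted p = 0.0329 for both). Neither Kit nor Cd74 stood for its whole list. Of the 6 spermatogonia markers 4 were above 0, and their sums overlapped (92.2 and 90.7 CPM in MUT, 81.0 and 91.5 CPM in WT). Of the 5 macrophage markers 3 were above 0. Their sums were higher in both MUT libraries (68.8 and 68.1 CPM in MUT, 64.3 and 64.6 CPM in WT). The call of Kit was lost without MUT 2 (0.106) or WT 1 (0.0977) and that of Cd74 without WT 1 (0.142). Kit and Cd74 also lost it without the filter (0.223 and 0.242), without the variance trend (0.202 and 0.176), after quantile normalization (0.0778 and 0.0541) and after removal of GC content and length (0.0801 and 0.0648). No member of the spermatocyte, round spermatid, elongating spermatid, Sertoli, peritubular myoid, endothelial, erythroid or epididymal lists was called. The globin genes of the erythroid list are listed at 0 in all libraries, and Alas2 at 19.9 to 24.1 CPM.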

Additional observations from a re-analysis of the deposited data

How the results depend on the processing

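None of the 9 tested genes was called under any of 18 alternatives, 161 values in all. Among these, the DESeq2 values of Slc26a6, Slc26a11 and Slc4a4 had no adjusted p and could not be called. The crossed pairing below was chosen after the data were seen. The log2 fold changes of Slc26a2, Slc26a8, Slc26a11, Slc4a3, Slc4a4 and Cftr kept their sign throughout, but with 1 library left out Slc4a4 ranged from 0.06 to 0.38, Slc26a11 from -0.18 to -0.03, Slc26a2 from 0.06 to 0.27, Cftr from 0.05 to 0.11, Slc26a8 from -0.05 to -0.01 and Slc4a3 from -0.39 to -0.24. Among genes of the related lists, Slc9a3r2 ranged from -0.55 to -0.08, Slc4a11 from -0.49 to -0.17, Car15 from -0.42 to -0.19 and Car2 from -0.20 to -0.08. Slc4a2 was at 0.0209 with plain library totals, 0.0147 with totals without the 100 most abundant genes and 0.0418 after removal of GC content and length, where Slc4a7 was at -0.0108. With 1 library left out, Slc26a6 ranged from -0.13 to 0.23, Slc4a2 from -0.0671 to 0.052 and Slc4a7 from -0.0284 to 0.173, so their direction is not known. With the remaining lone library assumed to vary like the other genotype, these fits gave 67 to 133 genes higher and 42 to 177 lower, with 133 and 177 without WT 1 and 101 and 86 without MUT 2.

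Over all genes, against 74 higher and 41 lower, the counts were 7 and 4 without the filter, 35 and 18 after quantile normalization and 5 and 2 without the variance trend. They were 122 and 34 with plain totals, 113 and 37 without the 100 most abundant genes, 94 and 72 with DESeq2 and 41 and 29 after removal of GC content and length. The cause was not tested. Libraries share replicate numbers, but nothing shown ties them together. The deviations of replicate 1 from its genotype mean were only weakly correlated between MUT and WT, with a negative sign (r = -0.134 across 15364 genes, which are not independent). The replicate block gave 57 and 31 calls and the crossed pairing 131 and 104. Slc4a4 has no value where all 4 libraries had to reach 1 CPM. Reads limit Slc26a1 most, which could not be tested. Of the tested genes they limit Slc26a11 and Slc4a4 most, where estimated rises in CPM under about 1.95-fold and 2.15-fold would not have been called.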
